A study of Mus musculus with 43 samples.

Results

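The caput epididymis of Rnase9-12 KO mice was compared with that of WT mice by small RNA-seq, across every RNA class counted. The comparison took the 6 libraries whose titles name caput tissue, 3 WT and 3 KO, of 43 libraries in the series. The question was whether loss of the RNase cluster goes with other levels of tRNA fragments (tRFs), rRNA fragments (rsRNAs) and other small RNAs in the first segment of the duct. Both groups were FVB males of 8 to 12 weeks. KO males carried a deletion of the genomic locus that holds Rnase9, Rnase10, Rnase11 and Rnase12, made with CRISPR-Cas9 and a pair of guide RNAs and present throughout the animal, and WT males carried no deletion. All 6 libraries were made from total RNA by ARM-seq after T4 polynucleotide kinase treatment, which removes the 3′ phosphates that RNase A family cleavage leaves and that block cloning. Whether tissue of several males was pooled for a library, whether WT males were littermates, and whether the line goes back to 1 founder were not stated in the sources used here. In bulk tissue, fewer cells of a type and less RNA per cell cannot be told apart.

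The caput is the head of the epididymis, where sperm from the testis first meet the secretions of the duct's epithelium. tRFs are pieces of mature tRNAs, named by the end that they keep: tRF_5′ start at the 5′ end, tRF_3′ stop at the 3′ end and tRF_other lie between. RNases of the RNase A family cut single-stranded RNA, and the member Angiogenin cuts tRNA anticodon loops, whereas the products of these 4 genes lack catalytic residues of the family.

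Transcripts of the 4 genes were not counted, so these libraries hold no check of the genotype. The label of section named the cauda for WT replicate 3, against its title and column name. Of 485 RNAs that separated KO cauda from KO caput by over 2 on the log2 scale with no overlap, 472 (97.3%) were nearer to KO caput in this library, against 462 and 473 in the other WT caput libraries and 43 to 55 in WT cauda libraries. Summed counts ran from 56232715 (WT replicate 2) to 249732714 (WT replicate 3). A read can count on more than 1 feature, and 529 of 4890 RNAs had the counts of another RNA in every tissue library, so these sums are not numbers of reads. Both libraries numbered 3 stood apart from the other 4 on the first principal component, which held 52.1% of the variance. Along this component, each WT library lay nearest to the KO library of its number. The epithelial miRNA precursors (Mir200a, Mir200b, Mir200c, Mir141, Mir429) had at least 10 counts in all 6 libraries, with a summed TMM-scaled level of 7.57 to 22.5 CPM (each library's counts brought to 1 common total) in WT and 11.4 to 22.4 in KO. Smooth muscle precursors (Mir143 and Mir145a, 2 of 3 listed) summed to 20.6 to 40.3 CPM in WT and 23.5 to 39.8 in KO. Blood and immune precursors (4 of 8 listed) summed to 0.061 to 0.103 CPM in WT and 0.0867 to 0.127 in KO, and male germ cell precursors (12 of 18 listed) to at most 0.243 CPM, with Mir470 and Mir878 at 0 in all 6.

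No RNA was called between KO and WT caput. The edgeR quasi-likelihood test gave 0 lower and 0 higher RNAs of 3488 tested (0% called, smallest adjusted p 0.9996) for calls with adjusted p below 0.05 and more than 1 on the log2 scale. DESeq2 with default settings also gave 0. The study, using DESeq2 at these thresholds, reported lower tRFs and rsRNAs in KO caput too, with fewer significant changes there than in cauda. Why the results differ was not tested. At an unadjusted p under 0.05, edgeR gave 23 lower RNAs (0.659% of those tested) and 11 higher ones (0.315%). All KO libraries lay below all WT libraries for 136 RNAs (3.9%) and above them for 113 (3.24%). The 95% interval of the log2 fold change had a median width of 0.97 to each side, and it excluded a fall by 1 or more on the log2 scale for 2011 RNAs and a rise by 1 or more for 1735.

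The make-up of the libraries by RNA class was close in WT and KO. 5S rsRNAs, the fragments and genomic repeats of 5S rRNA, took 81.4% ± 0.881 of counts in WT and 82.2% ± 0.993 in KO (SD, n = 3 each). snRNAs, the RNAs of the spliceosome, took 9.65% ± 2.36 and 9.73% ± 2.26. tRFs together took 4.18% ± 0.404 in WT and 3.77% ± 1.28 in KO, with 4.37%, 3.72% and 4.46% in WT replicates 1 to 3 and 2.72%, 3.4% and 5.2% in KO replicates 1 to 3. KO libraries thus lay both below and above all WT libraries. miRNA precursors took 0.0423% ± 0.0145 in WT and 0.0425% ± 0.0127 in KO. Exact permutation tests over the 22 classes and sums of classes gave no adjusted p under 1 (2-sided, where 3 against 3 libraries cannot go below 0.1). The lowest unadjusted p, 0.2, belonged to mitochondrial rRNA (0.0222% ± 0.00546 in WT, 0.0316% ± 0.0056 in KO) and mitochondrial tRNA, both higher in KO on average. All these shares depend on how many copies of an RNA are listed, since a read can count on more than 1. With the most counted entry alone for each rRNA type, anticodon and fragment type, 5S rsRNAs took 11.1% in WT and 11.5% in KO. All rsRNAs then took 20.4% and 19.4%, tRFs 9.65% and 9.14%, and snRNAs, whose copies were kept, 57.7% and 59.1%.

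**Figure D1:**
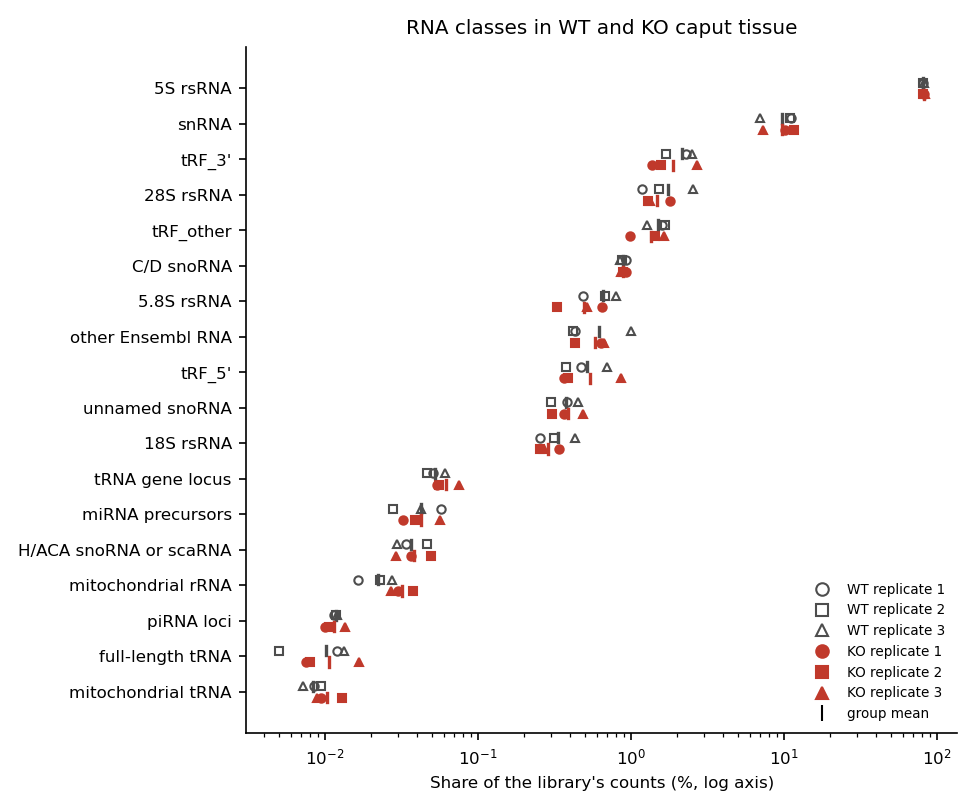
Share of each library's counts by RNA class on a log axis, with open grey symbols for WT caput libraries, filled red ones for KO caput libraries, a symbol shape for each replicate number and a bar for each group mean. WT and KO overlap in every class drawn, and the triangles of replicate 3 lie apart from the other libraries for snRNAs in both genotypes.

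Fold changes were also described by class, each against a median log2 fold change of 0.04 over all 3488 RNAs, of which 1574 were negative. tRF_5′ had a median of 0.11 (71 of 199 negative), tRF_3′ of 0.07 (80 of 197) and tRF_other of -0.10 (154 of 210). The rRNA repeats, copies of rRNA sequence scattered in the genome, were on the negative side, with a median of -0.46 for 28S repeats (148 of 165 negative) and -0.43 for 18S repeats (25 of 31). Mitochondrial tRNAs (0.52, 2 of 40 negative) and genomic tRNA loci (0.37, 38 of 266) were on the positive side. The side of these last 4 classes relative to all RNAs was the same under each scaling. Members of a class share reads, and a class median is not a test.

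**Figure D2:**
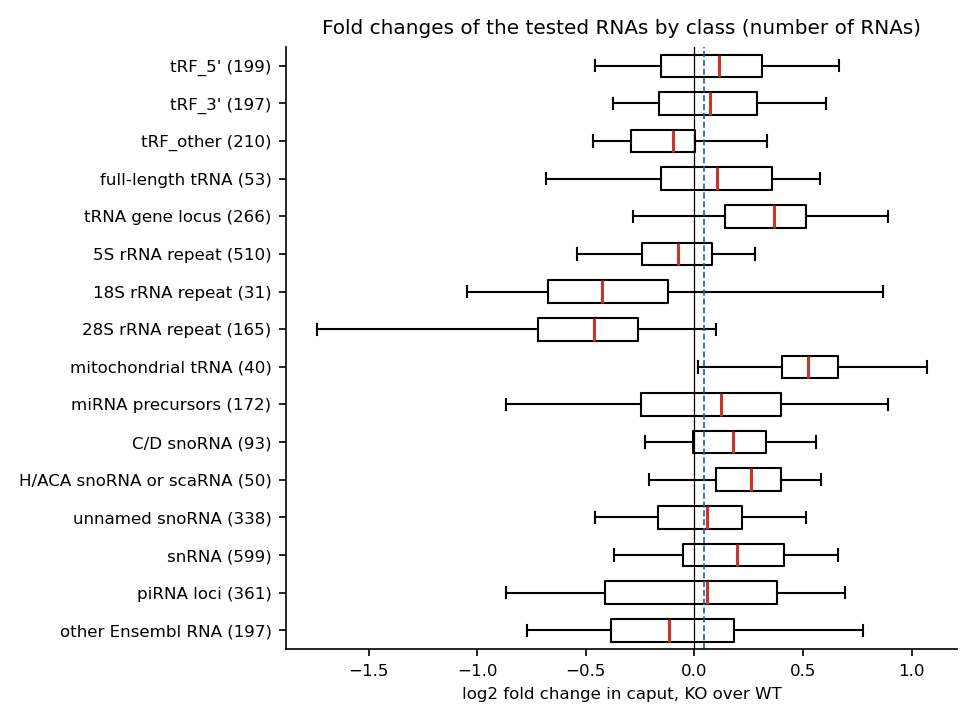
Boxes of the log2 fold change of KO over WT caput for each RNA class, with the median in red, the quartiles as the box and the 5th and 95th percentiles as whiskers, and the number of tested RNAs beside each name. The solid line marks 0 and the dashed line the median of all RNAs. Boxes of rRNA repeats lie to the left and those of mitochondrial tRNAs and tRNA loci to the right.

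The tRFs were next summed by anticodon and fragment type. tRNA copies of the same anticodon can share reads, and a sum counts a shared read for each copy. The level and rank of a sum therefore depend in part on how many copies are listed. Of 150 sums tested, 0 were called, 0 had an unadjusted p under 0.05 (against 0.59% of all 2034 sums) and 5 had groups that did not overlap (against 6% of all sums). All 5 were among the 50 tRF_5′ sums and lower in KO, against 84 of all 2034 sums that lay lower. The most counted tRF_5′ came from tRNA Gly-GCC, a tRNA known for abundant 5′ fragments in epididymis and sperm. It stood at 741, 403 and 2058 CPM in WT and 948, 446 and 2468 CPM in KO. Replicate 3 was the highest library in each genotype, and the spread within a genotype exceeded the difference between them (log2 fold change 0.27, 95% interval -1.26 to 1.80). Val-AAC tRF_5′ stood at 750.5, 540.1 and 399 CPM in WT and 442, 716 and 572 CPM in KO. Its groups overlapped (log2 fold change 0.04, -0.75 to 0.82), as did those of Val-CAC tRF_5′ (652, 459.7 and 350.5 CPM in WT, 381, 612 and 485 CPM in KO, log2 fold change 0.02, -0.76 to 0.79).

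Among tRF_3′, which end in the CCA tail of the mature tRNA, Gln-CTG was the most counted, with 3587, 2352 and 2166 CPM in WT and 1969.8, 2389 and 2530.5 CPM in KO (log2 fold change -0.23, -1.02 to 0.55). Trp-CCA tRF_3′ followed with 2819.8, 1549.5 and 1885 CPM in WT and 1494, 1569 and 1739 CPM in KO (-0.38, -1.14 to 0.38). WT replicate 1 held the highest value of both. The most counted tRF_other was that of Cys-GCA, at 4556, 4125 and 1655 CPM in WT and 2656, 4098 and 2264 CPM in KO (-0.20, -1.09 to 0.70). Of the 50 tRF_other sums, 44 were negative, at a median of -0.17 and with 0 non-overlapping, against 22 of 50 for tRF_5′ and 21 of 50 for tRF_3′.

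The tRF_5′ sums whose KO libraries lay below all WT libraries with the smallest p were Arg-TCG (1.73, 1.91 and 1.35 CPM in WT, 0.827, 1.16 and 1.29 CPM in KO, log2 fold change -0.60, -1.39 to 0.19) and Pro-TGG (86.9, 58.2 and 68.8 CPM in WT, 49, 40.3 and 56.2 CPM in KO, -0.55, -1.48 to 0.37). Neither interval excluded 0. In the opposite direction, 4 of 199 single tRF_5′ entries, all of tRNA Met-CAT, were higher in KO at an unadjusted p under 0.05 (against 0.315% of all RNAs). The most counted, Met-CAT-2, stood at 2.81, 1.45 and 2.61 CPM in WT and 3.26, 6.54 and 4.71 CPM in KO, with no overlap (log2 fold change 1.08, 0.13 to 2.03). Met-CAT-5, with nearly the same counts, also had no overlap, while Met-CAT-3 and Met-CAT-4 overlapped. KO replicate 2 was the highest library for each of the 4, and entries of one anticodon can share reads.

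The 6 anticodons named by the study for their tRFs (Gly-GCC, Gly-CCC, Val-CAC, Val-AAC, Gln-TTG and Glu-TTC) were taken in all 3 fragment types. None of these 18 sums had groups without overlap, 11 were negative, and the log2 fold changes ran from -0.45 (Val-CAC tRF_3′) to 0.27 (Gly-GCC tRF_5′), with a median of -0.13. For 9 of the 18, the interval excluded a fall by 1 or more on the log2 scale. Val-CAC tRF_3′ stood at 636, 415 and 571 CPM in WT and 324, 432 and 434 CPM in KO, so that KO replicates 2 and 3 exceeded WT replicate 2 alone. Glu-TTC tRF_5′ stood at 54.3, 36.3 and 97.3 CPM in WT and 34.2, 28.1 and 90.5 CPM in KO (log2 fold change -0.30, -1.61 to 1.01), with replicate 3 again far above the others in each genotype.

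**Figure D3:**
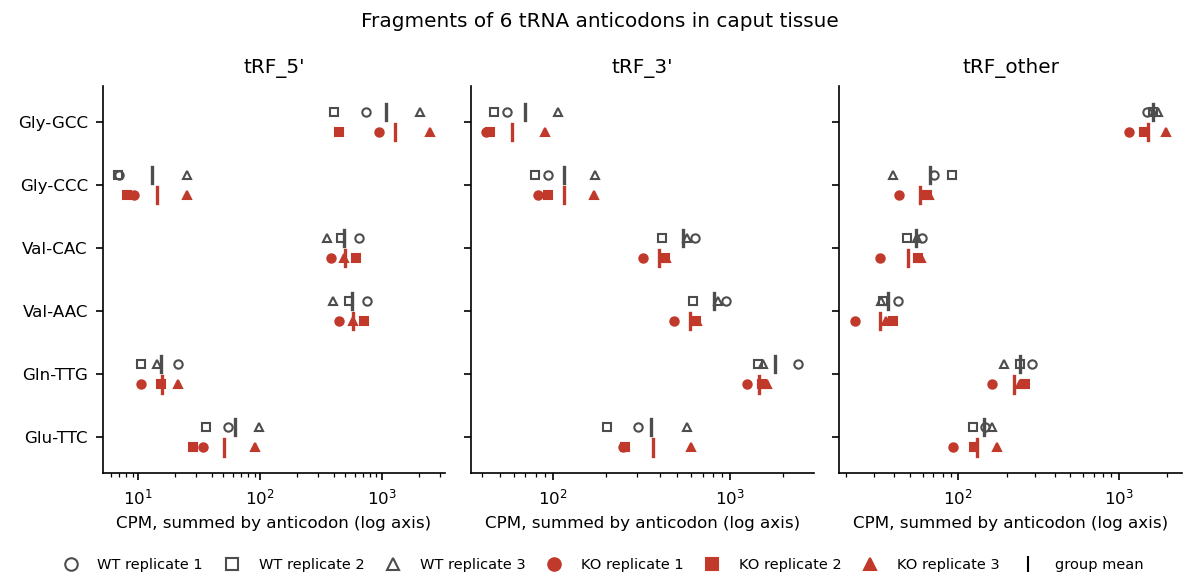
Level of the tRFs of 6 anticodons in each caput library, in CPM summed by anticodon on a log axis, in 1 panel for each fragment type, with symbols as for the RNA classes. WT and KO libraries overlap for all 18 sums, and both replicate 3 libraries are the highest of their genotype for the Gly-GCC, Gly-CCC and Glu-TTC tRF_5′.

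The cauda, the last segment, was used to ask whether the KO effect on these sums differed along the duct. In cauda tissue all 18 log2 fold changes were negative, from -2.22 to -0.65 with a median of -1.24. The difference, caput minus cauda, was positive for all 18, with a median of 1.20. Of all 150 tRF sums, which include these 18, 146 were negative in cauda, at a median of -0.92. The difference was positive for 146 of the 150, at a median of 0.79, so its direction was not particular to the 18. The study chose the anticodons of the 18 sums on libraries that include the cauda ones, so their cauda direction is not independent evidence. The interaction test, on a contrast that holds those cauda values, gave an unadjusted p under 0.05 for 8 of the 18. This was so for 23 of all 150 tRF sums and for 3.83% of all 2034 sums. The adjusted p of the 18 was 0.994 at the lowest. Their lowest unadjusted p, 0.00993, was that of Glu-TTC tRF_other. It stood at 147, 124 and 162 CPM in WT caput and 92.8, 124.6 and 175 CPM in KO caput, with a log2 fold change of -0.14 (-0.88 to 0.60) in caput, -1.58 (-2.34 to -0.82) in cauda and a difference of 1.44 (0.39 to 2.50). For Gly-GCC tRF_5′ the difference was 1.81 (-0.36 to 3.99), an interval that includes 0. In the main fit, no difference between the segments was called for any of the 3488 RNAs or 2034 sums (0% called). Fits with a replicate block did call such differences, with the counts given in the closing section. Without WT caput replicate 2, 13 RNAs were called in this test, all with a higher difference.

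**Figure D4:**
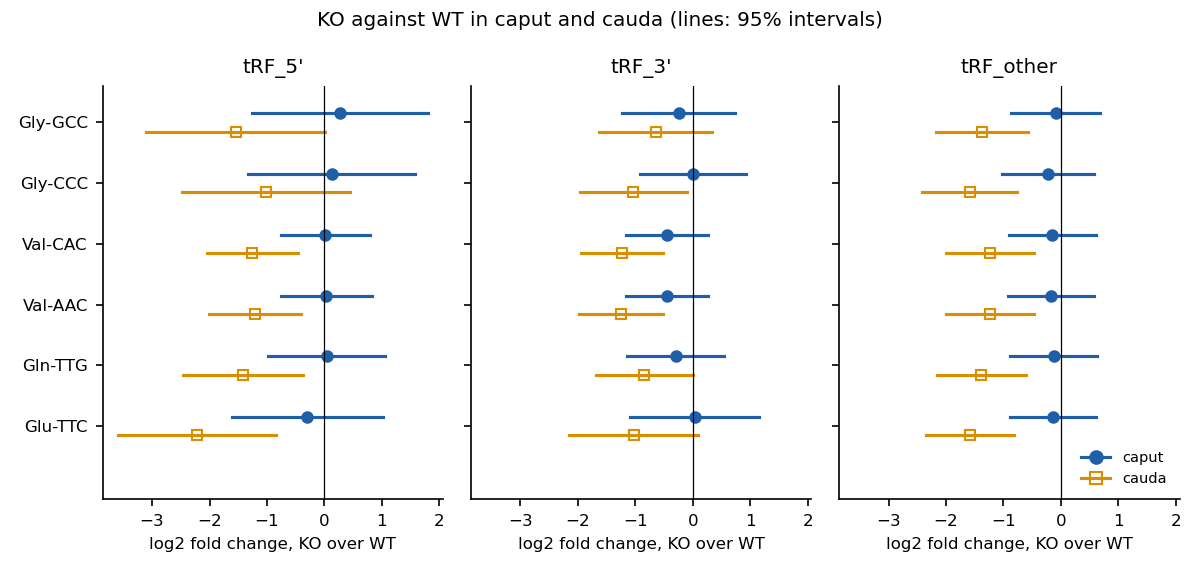
Log2 fold change of KO over WT for the tRF sums of 6 anticodons in caput (filled circles) and cauda (open squares), with lines for the 95% interval, in 1 panel for each fragment type. All caput intervals include 0, and each caput point lies to the right of its cauda point.

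rRNA fragments were read from the rRNA sequences and from the genomic repeats. The 5 nuclear rRNA sequences, parts of the cytoplasmic ribosome, had log2 fold changes from -0.17 to 0.27. The 5S rRNA sequence stood at 13789.7, 12347 and 11004 CPM in WT and 16975, 17027 and 10648 CPM in KO (0.27, -0.67 to 1.20). The 5.8S rRNA sequence stood at 3783, 4636 and 5513 CPM in WT and 6008, 2917 and 3464 CPM in KO (-0.17, -0.99 to 0.65). KO libraries were the highest and the lowest of all 6 for both sequences. The 28S repeats, summed, stood at 3577, 4114 and 7952 CPM in WT and 5196, 3465 and 4188 CPM in KO (-0.28, -0.99 to 0.43), with WT replicate 3 above all others. Without that library the value was 0.14, and that of the summed 18S repeats went from -0.25 to 0.28.

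Of the single 28S repeats, 19 of 165 had all KO libraries below all WT libraries (against 3.9% of all RNAs) and 10 had an unadjusted p under 0.05 with a negative sign (against 0.659%). The negative side of the class leaned on 1 library: without WT replicate 3, 92 of 162 repeats were negative, at a median of -0.17. Repeat rmsk_28S_475 stood at 54.7, 73.3 and 51.6 CPM in WT and 38.7, 31.4 and 28.4 CPM in KO (log2 fold change -0.87, -1.69 to -0.04). Similar values were found for repeat rmsk_28S_108, at 57.1, 75.6 and 60.9 CPM in WT and 41.3, 33.4 and 33.1 CPM in KO (-0.84, -1.65 to -0.03). Both were called lower in KO cauda (-2.31 and -2.28, adjusted p = 0.00628 and 0.00627 in edgeR).

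In cauda, 29 RNAs were called lower in KO (0.831% of those tested) and 1 higher (0.0287%). Their caput levels give the same RNAs in other libraries. The 29 were 20 28S repeats, 6 snRNA entries and 3 tRF_other entries, and 27 had a negative log2 fold change in caput, with a median of -0.53 against -2.47 in cauda. Of the 29, 4 had non-overlapping caput groups and 3 an unadjusted p under 0.05 in caput, all 28S repeats and lower in KO, against 3.9% and 0.659% of all RNAs. Several of the 20 repeats had nearly the same counts in every caput library and are not separate members. The 20 repeats were scarce in caput: the median of their mean level was 7.91 CPM in WT caput and 5.49 in KO caput, against 506 CPM in WT cauda and 85.4 in KO cauda. Repeat rmsk_28S_880, for example, stood at 2.9, 5.97 and 2.63 CPM in WT caput and 3.2, 3.74 and 1.39 CPM in KO caput (-0.47, -1.34 to 0.41), with means of 374 CPM in WT cauda and 48.4 in KO cauda. The interaction test gave 27 of the 29 an unadjusted p under 0.05 (against 6.05% of all RNAs), in the contrast that chose them in part, and an adjusted p of 0.342 at the lowest.

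Mitochondrial RNAs, transcribed from the organelle's own genome, were on the positive side in KO caput. The small-subunit mitochondrial rRNA stood at 29, 38.5 and 35.7 CPM in WT and 67, 79.2 and 41.9 CPM in KO. All KO libraries were above all WT libraries, though KO replicate 3 by little (log2 fold change 0.87, -0.09 to 1.83). The large-subunit rRNA stood at 98.9, 118 and 154 CPM in WT and 214, 259 and 138 CPM in KO, where KO replicate 3 fell within WT (0.72, -0.21 to 1.65). An 18S repeat and a 28S repeat had the counts of these mitochondrial sequences. Of 40 mitochondrial tRNA entries, 38 were positive, 1 had an unadjusted p under 0.05 (against 0.315% of all RNAs, higher in KO) and 1 lay higher in all KO libraries (against 3.24%). Without KO replicate 2, 27 of 40 were positive, at a median of 0.17. In cauda, 39 of the 40 were positive in the main fit, at a median of 0.91. The small-subunit and large-subunit rRNAs there had log2 fold changes of 1.68 (0.70 to 2.66) and 1.73 (0.77 to 2.68). Neither passed the adjustment.

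The most counted mitochondrial tRNA gene in WT was mt-Th, the tRNA for histidine, and the entry with non-overlapping groups belonged to tyrosine, whose gene is mt-Ty. Their GENCODE vM21 sequences (GRCm38, 5′ to 3′) are shown with the anticodon in capitals. mt-Th lies at chrM:11546-11612 on the plus strand and mt-Ty at chrM:5260-5326 on the minus strand.
mt-Th: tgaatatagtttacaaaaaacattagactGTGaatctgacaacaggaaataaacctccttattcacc
mt-Ty: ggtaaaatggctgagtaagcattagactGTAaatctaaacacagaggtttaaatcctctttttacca

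mt-Th stood at 9.78, 4.67 and 12.2 CPM in WT and 13.1, 10.3 and 14.9 CPM in KO (log2 fold change 0.52, -0.32 to 1.37). The tRNA database entry mt-tRNA-Tyr-GTA-1-1 stood at 1.33, 1.27 and 2.63 CPM in WT and 2.77, 3.13 and 3.94 CPM in KO (0.91, -0.04 to 1.86). The groups overlapped for mt-Th and came close without overlap for the tyrosine tRNA, with WT replicate 3 the highest WT library in each. Histidine also has a tRNA database entry, mt-tRNA-His-GTG-1-1, so a tRNA can have more than 1 entry. That entry stood at 9.65, 6.56 and 5.97 CPM in WT and 13.5, 13 and 7.27 CPM in KO (0.61, -0.47 to 1.69). Its groups overlapped, and WT replicate 3 was its lowest WT library.

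miRNAs guide Argonaute proteins to target mRNAs through the seed, bases 2 to 8 of the mature strand. The counts are per precursor, and do not tell its 5p from its 3p strand. The mature sequences below are those of RefSeq (GRCm38.p6, 5′ to 3′), of the strand that usually predominates, with the seed in capitals. These 5 belong to abundant precursors of WT caput, with miR-10a at chr11:96317186-96317208 and miR-10b at chr2:74726074-74726096 (plus strand), miR-148a at chr6:51269829-51269850 (minus strand), let-7c of Mirlet7c-2 at chr15:85706616-85706637 (plus strand) and miR-21a at chr11:86584120-86584141 (minus strand).
mmu-miR-10a-5p: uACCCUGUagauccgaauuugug
mmu-miR-10b-5p: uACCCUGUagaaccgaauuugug
mmu-miR-148a-3p: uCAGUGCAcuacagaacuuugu
mmu-let-7c-5p: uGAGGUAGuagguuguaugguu
mmu-miR-21a-5p: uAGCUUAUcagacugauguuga

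Mir10a (chr11) stood at 46.7, 15.1 and 35.6 CPM in WT and 38.1, 35.4 and 47.9 CPM in KO (log2 fold change 0.32, -0.42 to 1.06). Mir10b (chr2), with the same seed, stood at 41.7, 16.6 and 34.1 CPM in WT and 30.5, 30.6 and 42.7 CPM in KO (0.17, -0.54 to 0.88). WT replicate 2 was the lowest of the 6 libraries for both, and also for Mir148a, Mirlet7c-2 and Mir21a. Mir148a ran from 10.8 to 50.5 CPM in WT and from 21 to 30.4 CPM in KO (-0.03, -1.12 to 1.05), and Mir21a from 2.8 to 12.3 CPM and from 6.04 to 9.19 CPM (0.22, -0.74 to 1.18). The let-7 family, known in differentiated tissue, summed to 63.7, 28 and 60.5 CPM in WT and 50.2, 42.2 and 77.6 CPM in KO (0.16, -0.70 to 1.02). Of 172 precursors tested, 72 were negative and none of these abundant ones had groups without overlap.

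**Figure D5:**
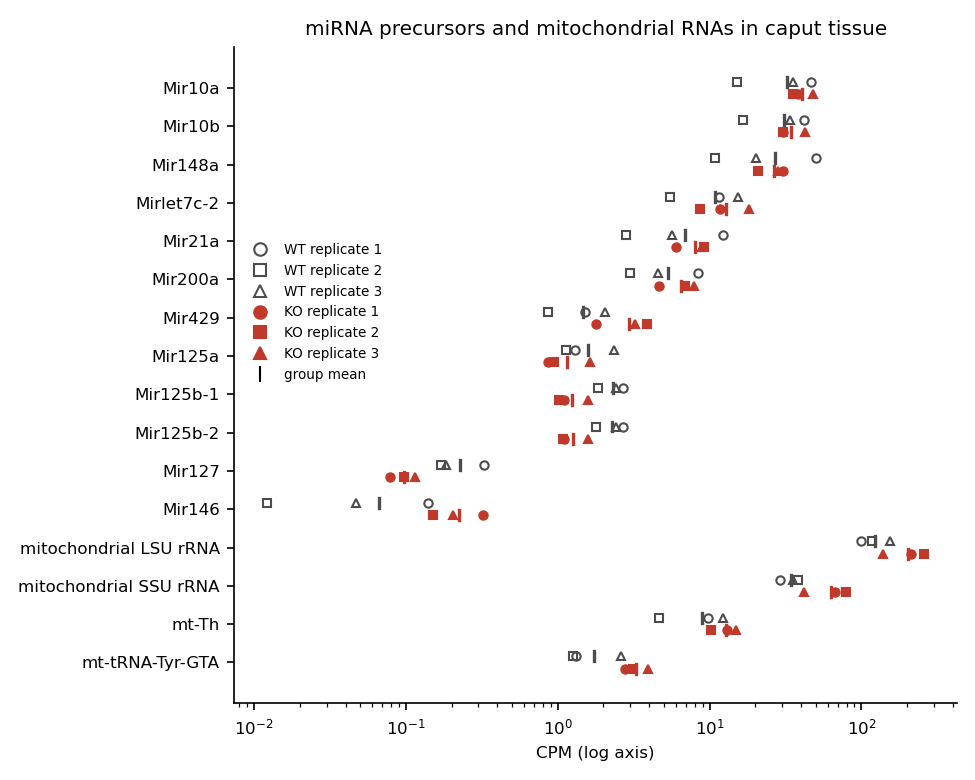
Level of miRNA precursors and mitochondrial RNAs in each caput library, in CPM on a log axis, with symbols and mean bars as for the RNA classes. The abundant precursors at the top overlap between genotypes, while Mir125b-1, Mir125b-2 and Mir127 lie lower and Mir146, the small-subunit rRNA and mt-tRNA-Tyr-GTA higher in all KO libraries.

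The precursors with the smallest p were less abundant ones. Their sequences follow. miR-125a and miR-351 are shown because they have the seed of miR-125b, and miR-200a because its gene neighbours that of miR-429, from which its seed differs. The plus strand holds miR-125a (chr17:17830817-17830840), miR-125b (chr9:41581940-41581961 and chr16:77646279-77646300) and miR-127 (chr12:109592888-109592909). The minus strand holds miR-351 (chrX:53053315-53053338), miR-146a (chr11:43374435-43374456), miR-429 (chr4:156053916-156053937) and miR-200a (chr4:156054911-156054932).
mmu-miR-125a-5p: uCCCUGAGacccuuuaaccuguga
mmu-miR-125b-5p: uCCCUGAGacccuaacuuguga
mmu-miR-351-5p: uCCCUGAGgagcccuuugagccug
mmu-miR-127-3p: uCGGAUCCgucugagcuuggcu
mmu-miR-146a-5p: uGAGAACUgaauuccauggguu
mmu-miR-429-3p: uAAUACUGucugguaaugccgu
mmu-miR-200a-3p: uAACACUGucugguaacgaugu

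Mir127 (chr12), an imprinted precursor of the Dlk1-Dio3 region, had 35, 14 and 66 counts in WT and 9, 9 and 36 in KO. This is 0.327, 0.171 and 0.183 CPM against 0.078, 0.0973 and 0.115 CPM, with no overlap (log2 fold change -1.19, -1.93 to -0.45). Mir125b-1 (chr9) stood at 2.7, 1.83 and 2.42 CPM in WT and 1.1, 1.03 and 1.59 CPM in KO (-0.90, -1.78 to -0.02). Mir125b-2 (chr16) yields the same mature miR-125b-5p and shares its reads, and also had no overlap (-0.87, -1.73 to -0.00). Mir125a overlapped, at 1.31, 1.13 and 2.33 CPM in WT and 0.867, 0.951 and 1.63 CPM in KO (-0.47, -1.24 to 0.30). The summed seed family, where reads shared by Mir125b-1 and Mir125b-2 count for both, stood at 8.05, 5.59 and 8.24 CPM in WT and 3.22, 3.33 and 5.52 CPM in KO (-0.86, -1.75 to 0.04). None of these passed the adjustment over all RNAs (adjusted p = 0.9996 for Mir127 in edgeR).

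Mir146 (chr11), the precursor of miR-146a, which damps innate immune signalling, had 15, 1 and 17 counts in WT and 37, 14 and 64 in KO. All KO libraries were above all WT ones (0.14, 0.0122 and 0.0472 CPM against 0.321, 0.151 and 0.204 CPM, log2 fold change 1.76, 0.49 to 3.04). The leukocyte precursor Mir142 had 3, 1 and 17 counts in WT and 6, 7 and 20 in KO, also without overlap in CPM (0.89, -0.14 to 1.93). Mir150, from the same blood and immune list, went the other way without overlap. It stood at 0.028, 0.0244 and 0.0278 CPM in WT and 0.00867, 0 and 0.0223 CPM in KO, from 3, 2 and 10 and 1, 0 and 7 counts. Mir223 and Mir451a overlapped, as did the summed blood and immune precursors. Whether cell composition had a part in the value of Mir146 was not tested. Mir429, of the epithelial miR-200 group, stood at 1.5, 0.866 and 2.04 CPM in WT and 1.79, 3.86 and 3.23 CPM in KO (1.003, 0.12 to 1.88, with overlapping groups). Its neighbour on chr4, Mir200a, stood at 8.37, 3.01 and 4.59 CPM in WT and 4.63, 6.92 and 7.89 CPM in KO (0.28, -0.62 to 1.19), and Mir200b had a log2 fold change of 0.00 (-0.93 to 0.94). Mir196a-2 was counted 1, 1 and 10 times in WT and 0 times in each KO library, where a count of 0 allows up to 3, and no fold change is given.

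Other abundant precursors varied more between libraries than between genotypes. Mir143, of smooth muscle, stood at 37.4, 19 and 22.5 CPM in WT and 21.8, 29.6 and 35.5 CPM in KO (log2 fold change 0.14, -0.59 to 0.86). Mir3535 stood at 42.6, 18.2 and 2.85 CPM in WT and 19.4, 28.6 and 4.45 CPM in KO (-0.28, -2.33 to 1.77), and Mir1291 at 6.16, 7.05 and 1.49 CPM and at 7.7, 15.9 and 1.21 CPM (0.75, -1.36 to 2.87). Both were lowest in the replicate 3 libraries of each genotype, as were the H/ACA RNAs Snora28 and Snora26.

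Families were summed over precursors linked by a seed on either strand, in a fit with its own scaling. Their CPM therefore differ from those given for single RNAs and for the epithelial precursors above. The miR-200 family holds Mir200a, Mir200b, Mir200c, Mir141 and Mir429. It stood at 26.9, 8.8 and 19.7 CPM in WT and 11.8, 22.1 and 25.5 CPM in KO (log2 fold change 0.10, -0.81 to 1.01). The miR-30 family, abundant in many epithelia, had a log2 fold change of 0.20 (-0.71 to 1.11), the miR-26 family of -0.20 (-1.11 to 0.71) and the miR-99 family of -0.36 (-1.24 to 0.51). Mir205, a marker of basal epithelial cells, stood at 1.73, 0.794 and 1.36 CPM in WT and 0.62, 0.787 and 0.974 CPM in KO (-0.70, -1.62 to 0.21). KO replicate 3 alone exceeded the lowest WT library on this scale. On the scale of the single RNAs, KO replicate 2 exceeded it too (0.735 against 0.683 CPM in WT replicate 2). The miR-29 family, which targets collagen mRNAs, stood at 0.648, 0.369 and 0.652 CPM in WT and 0.414, 1.23 and 1.15 CPM in KO (0.73, -0.28 to 1.74). Its cauda value was -1.01 (-2.10 to 0.08), and the difference between the segments was 1.74 (0.26 to 3.23), which did not pass the adjustment. The interval of every family listed here included 0 in caput.

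Full-length tRNAs, which this cloning method captures poorly, were led by His-GTG. It stood at 30.3, 6.72 and 35.2 CPM in WT and 20.3, 19.7 and 46.8 CPM in KO (log2 fold change 0.27, -0.99 to 1.52), with WT replicate 2 the lowest. Glu-CTC and Lys-CTT full-length tRNAs followed, with log2 fold changes of -0.05 (-0.97 to 0.87) and 0.16 (-0.80 to 1.13). Of 53 entries, 21 were negative and 1 lay higher in all KO libraries, against 3.24% of all RNAs.

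The other structured RNAs overlapped with few exceptions. Rn7sk, the 7SK RNA that holds the elongation factor P-TEFb inactive, stood at 171, 202 and 250.4 CPM in WT and 325, 231 and 151 CPM in KO (log2 fold change 0.18, -0.81 to 1.18). Rn7s2, a 7SL RNA of the signal recognition particle, stood at 655, 479 and 1329 CPM in WT and 1184, 722 and 793 CPM in KO (0.13, -0.72 to 0.99). The Y RNAs Rny1 and Rny3, partners of the Ro60 protein, had log2 fold changes of 0.16 (-0.54 to 0.86) and 0.07 (-0.72 to 0.87), Rmrp of 0.07 (-0.62 to 0.75), Rpph1, the RNA of RNase P, of -0.21 (-1.02 to 0.59) and the vault RNA Vaultrc5 of 0.04 (-0.64 to 0.72). In cauda, Rn7s2 and Vaultrc5 had log2 fold changes of 1.41 and 1.09, and the differences from caput were -1.28 (-2.50 to -0.07) and -1.05 (-2.01 to -0.08), neither of which passed the adjustment.

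Small nucleolar RNAs guide the modification of rRNA, C/D RNAs its methylation and H/ACA RNAs its pseudouridylation. Of 93 C/D snoRNAs, 24 were negative, and of 50 H/ACA snoRNAs and scaRNAs, 8, against 1574 of all 3488 RNAs. With scaling by library totals, 50 and 23 were negative, against 2154 of all RNAs, and without WT replicate 2, 48 of the 93 C/D snoRNAs were. Snora61, an H/ACA RNA, stood at 8.34, 10.4 and 10.9 CPM in WT and 15.3, 16.7 and 11 CPM in KO, which did not overlap, although KO replicate 3 and WT replicate 3 nearly met (0.54, -0.11 to 1.18). Rnu3a, a U3 RNA of pre-rRNA processing, stood at 133, 146 and 144 CPM in WT and 178, 155 and 162 CPM in KO (0.22, -0.32 to 0.77). Among unnamed small RNAs of the annotation, Gm27527 stood at 0.317, 0.256 and 0.2 CPM in WT and 0.113, 0.0756 and 0.156 CPM in KO (-1.09, -1.95 to -0.22), and Gm26476 had a log2 fold change of -0.91 (-1.64 to -0.17), both without overlap. In the other direction, Gm23061 had 0, 2 and 19 counts in WT and 7, 10 and 28 in KO (1.39, 0.09 to 2.68), and Gm27506 had 0, 0 and 4 counts in WT and 2, 2 and 9 in KO (1.70, -0.03 to 3.44). None of the 4 passed the adjustment. Among the snRNAs, the most counted entry, Gm23444, stood at 7372, 5353 and 2089.8 CPM in WT and 8068, 9100.0 and 2173 CPM in KO (0.38, -1.11 to 1.88). Both replicate 3 libraries had the lowest level, and near-identical copies of this entry share its reads. Without overlap, the snRNA entries Gm25783 (1.02, 0.06 to 1.98) and Gm24797 (1.11, -0.05 to 2.27) were higher in KO, and Gm25280 (-0.50, -1.08 to 0.09) and Gm22868 (-0.61, -1.33 to 0.12) lower. Of 599 snRNA entries, 187 were negative, 8 lay lower and 17 higher in all KO libraries, against 3.9% and 3.24% of all RNAs.

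The piRNA loci, sources of the small RNAs that silence transposons in germ cells, were scarce. They took 0.0118% ± 0.000221 of counts in WT and 0.0114% ± 0.0019 in KO, and 163 of 361 were negative, at a median of 0.06. The locus entry pi-Ctdsp2.1 stood at 6.02, 2.91 and 3.47 CPM in WT and 2.5, 3.61 and 5.09 CPM in KO (-0.15, -0.93 to 0.63). Of the 361 loci, 15 lay lower and 15 higher in all KO libraries, against 3.9% and 3.24% of all RNAs.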

How the data were processed

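ARM-seq libraries of 17 tissue samples (caput, corpus and cauda, WT and KO) were used, 6 of them from caput. The deposited file holds raw read counts per small RNA: the authors trimmed adapters and the molecular identifier with cutadapt, mapped reads with bowtie2 inside a modified tRAX pipeline to the mm10 genome with added mature tRNA and rRNA sequences, and kept best matches with exceptions: tRNA reads kept no match outside tRNAs, reads of rRNAs and repeats none outside these, and tRNA counts used reads specific to acceptor and anticodon. The submitters' processing notes also name UMI-tools, and whether duplicate reads were collapsed is not given in the sources used here. Of 4890 RNAs listed, 529 have the counts of another RNA in every tissue library. Groups were taken from the labels. Fluid and sperm libraries were not used here.

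Counts were tested with edgeR 4.0.16 (quasi-likelihood test, TMM scaling, R 4.3.3) in 1 model over all 17 libraries by segment and genotype, after filterByExpr (minimum count 10, minimum total 15), with Benjamini-Hochberg adjustment over all RNAs. CPM are TMM-scaled. Intervals are 95%, from the model's standard error. Sums by anticodon and fragment type, rRNA type or miRNA seed (of either strand) were fitted likewise in a separate table. Its own TMM factors put the CPM of sums on another scale than those of single RNAs. A read shared by entries of a sum counts for each of them. DESeq2 1.42.0 and other scalings, filters and library sets were alternatives. Class shares were compared by exact permutation. The caput fit was tested on simulated data. p-values measure the spread between libraries, which have no stated animal or batch. Limits at 0 counts cover counting error only.

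Members and lists were chosen with earlier results of these data known. RNAs were named by rule: for each class the 3 of highest WT caput level (10 for miRNA precursors) and, among those without overlap between groups, the 2 of smallest p in each direction, with the 6 anticodons the study names, all rRNA sequences, known structured RNAs, listed miRNA families, and the 5 of smallest p called in cauda. The single Met-CAT tRF_5′ entries and repeats rmsk_28S_475 and rmsk_28S_108 were chosen after their values were seen.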

Additional observations from a re-analysis of the deposited data

How the results depend on the processing

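No caput RNA or sum was called in any of the fits run. The count of RNAs without adjustment, 23 lower and 11 higher at p under 0.05, ran from 8 to 100 and from 2 to 121 over the alternatives. Deviations from the group mean, not whole profiles, correlated at 0.03, 0.52 and 0.72 between same-numbered WT and KO libraries. By this measure, WT replicate 1 was nearest to KO replicate 2 (0.25). On the first principal component, however, each WT library lay nearest to the KO library of its number (-0.135 and -0.119, -0.48 and -0.366, 0.556 and 0.543). The labels state no pairs, and the main fit did not take numbers as pairs. Variation shared by number thus stays in its error. With a replicate block, caput calls stayed at 0 in edgeR and in DESeq2, while the segment difference had 20 higher RNAs and 13 higher sums in edgeR (0 without the block), and 56 higher and 30 lower RNAs and 44 higher and 30 lower sums in DESeq2. Leaving out 1 caput library gave 0 to 13 higher RNAs for that difference, the 13 without WT replicate 2. Class medians of the log2 fold change moved as follows. Leaving out 1 library gave -0.20 (without KO replicate 3) to 0.12 for tRFs, -0.13 (without KO replicate 3) to 0.25 for tRF_5′ and -0.0886 (without WT replicate 3) to 0.17 (without WT replicate 2) for piRNA loci. Without both libraries of replicate 3, chosen after seeing the data like the DESeq2 fit with the block, tRFs were at -0.22, tRF_5′ at -0.10 and tRF_other at -0.40. With library totals rsRNAs were at -0.33, snRNAs at 0.0244 and piRNA loci at -0.12, and the median of all RNAs went from 0.04 to -0.13. DESeq2 size factors put rsRNAs at -0.25, DESeq2 put them at -0.25 and piRNA loci at -0.14 (-0.13 with the block), and no filter put piRNA loci at -0.0699. When rRNA types and anticodons were each reduced to their single highest entry, the rsRNA median was 0.0615 and the log2 ratio of shares -0.0737 for rsRNAs and 0.0581 for 5S rsRNAs. Of 124 named RNAs and sums, 48 had the same sign in all settings and 76 another sign in at least 1. The cause of these shifts was not tested.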
